A study of Mus musculus with 6 samples.

Results

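Glycosaminoglycans, the sulfated sugar chains of the endothelial glycocalyx and of the extracellular matrix, are broken down by a set of enzymes, most of them hydrolases. Here 8 of these enzymes were followed in the lungs of endotoxaemic mice. They are heparanase (Hpse), iduronate-2-sulfatase (Ids), α-L-iduronidase (Idua), N-sulfoglucosamine sulfohydrolase (Sgsh), heparan-α-glucosaminide N-acetyltransferase (Hgsnat), N-acetyl-α-glucosaminidase (Naglu), β-glucuronidase (Gusb) and arylsulfatase B (Arsb). The genes were chosen by name, for their known role in degrading heparan sulfate and dermatan sulfate, and every probe whose accession RefSeq assigns to one of them was taken. This gave 12 probes of 56207, for 8 genes of the 22815 named by the probes that were used. All 8 were among the 16370 genes that could be tested.

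Lung RNA came from male C57BL6 mice aged 10 weeks, which had been starved for 16 h and then injected intraperitoneally with LPS at 20 mg/kg. One group of 3 mice received saline and the other group of 3 mice received recombinant human thrombomodulin (rhTM, a soluble form of the endothelial anticoagulant receptor) at 3 and 24 h after LPS, and lungs were taken at 30 h. Both groups carried the endotoxin challenge and the starvation, and no array of an unchallenged lung was compared here. Each lung was measured on its own Agilent 1-colour array, and the comparison addressed whether rhTM altered the transcripts of enzymes that take the glycocalyx apart.

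Degradation of heparan sulfate begins when heparanase, a secreted endoglycosidase that is also stored in lysosomes, cuts the chains attached to cell surface proteoglycans into fragments. After uptake, exo-enzymes of the lysosome remove sulfates and sugars one at a time from the non-reducing end, and each step needs the product of the one before, so that loss of any single enzyme leads to storage of the partly degraded chain (the mucopolysaccharidoses). Most soluble lysosomal hydrolases reach the organelle through mannose 6-phosphate receptors, sulfatases must first be activated by formylglycine-generating enzyme, and many lysosomal genes carry promoter elements bound by the transcription factor TFEB.

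That element contains the letters CACGTG, and the promoters of Sgsh and Naglu are shown because they were the only ones among these enzymes in which the letters were found. Of the 8 enzymes, 7 have a promoter in the RefSeq table of assembly GRCm38.p6, taken as 250 bases before to 50 bases after the start. The Sgsh window was chr11:119355516-119355555 on the minus strand and the Naglu window was chr11:101070003-101070042 on the plus strand, each printed 5′ to 3′ on the strand of its gene. Capitals mark the match to GTCACGTG, which reads CACGTGAC on the other strand. It lay 29 to 22 bases before the start of Sgsh and 75 to 68 bases before the start of Naglu.
Sgsh: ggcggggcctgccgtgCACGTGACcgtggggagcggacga
Naglu: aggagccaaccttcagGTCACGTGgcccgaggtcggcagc

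Searched on both strands, CACGTG was found in 2 of the 7 promoters (28.6%), in 18 of 64 promoters of the other lysosomal genes described further on (28.1%) and in 7.15% of all 32851 promoters. The longer GTCACGTG, every match of which is also a match to CACGTG, was found in the same 2 promoters (28.6%), in 23.4% of those of the other lysosomal genes and in 2.25% of all promoters. These matches describe the letters of the windows and say nothing of binding in these lungs. The study also measured Hpse by quantitative PCR, and its pair of primers is shown because heparanase, the enzyme that opens the process, can be measured again with them.
Hpse forward primer: tgagctctgatgtgctggac
Hpse reverse primer: cacataaagccagctgcaaa

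Values below are log2 processed signals minus the 75th percentile of the same array, so that 0 is the signal at that percentile and 1 unit is a doubling. They are not comparable between probes. Precision is limited by the 3 arrays of each group. Markers of lung tissue were present, since 8 of 9 markers of alveolar epithelium, among them the surfactant gene Sftpc, were well above background on all 6 arrays, and the ninth, Rtkn2, is not named on the array. The arrays came from 2 slides, of which saline 1 and rhTM 3 were on slide 2 and the remaining arrays on slide 1. In a table of values also deposited by the authors, the columns of saline replicate 1 and rhTM replicate 2 hold each other's scanner values. Values are from the scanner files under their deposited labels, and the table is cited as a second reading of the same arrays. A value given without that reading may still differ in the table. On array saline 1 the RNA spike-ins had a slope of 0.826, against 1.07 to 1.09 on the others.

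No difference between rhTM-treated and saline-treated mice passed the test for any of the 8 enzymes. After Benjamini-Hochberg adjustment of limma's moderated test over all genes, 0 of 8 passed, beside 0% of the 16370 genes, and the lowest adjusted p over all genes reached 0.9999. Without adjustment, 0 of 8 enzymes had a p under 0.05 either, beside 1.87% of genes (306), a number that was 1379 without rhTM replicate 2 and 1222 without both exchanged arrays. The methods' t-test likewise gave 0 genes after adjustment, with 340 genes at an unadjusted p under 0.05, and 0 of 8 enzymes passed the fold and P thresholds of the methods, which 1 gene higher and 0 lower passed by that test and 3 higher and 3 lower by limma. By the mean, 6 of 8 enzymes were lower with rhTM, where 49.3% of all genes were lower, and their median difference was -0.059 beside 0.0026 for all genes. By the authors' table it was 5 of 8 beside 54% of genes, with a median of -0.067. In 0 of 8 did the arrays of the groups separate without overlap in the scanner output, beside 5.52% of genes, and in 1 of 8 by the table, beside 21.7%. In whole lung, fewer cells of a type and less RNA per cell cannot be told apart.

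**Figure D1:**
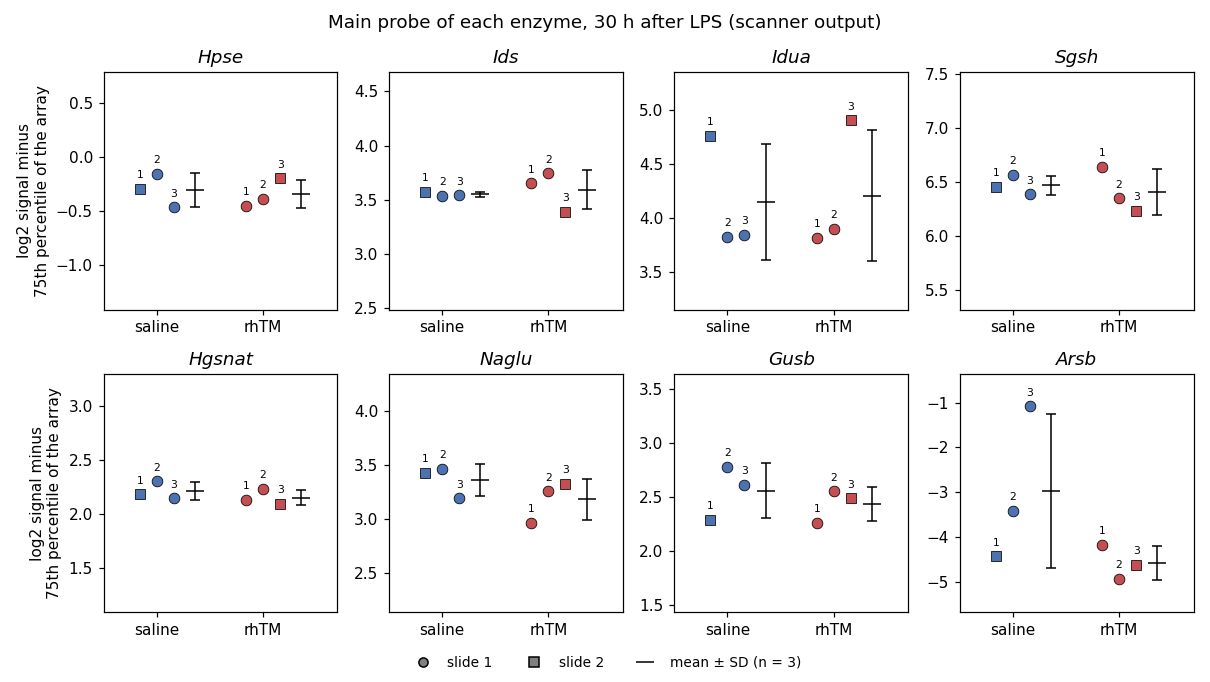
Level of the main probe of each enzyme on each array, as log2 signal minus the 75th percentile of the array (y axis, 1 panel per gene with its own range), for 3 saline-treated and 3 rhTM-treated mice. Numbers are replicates, circles are slide 1, squares are slide 2, and bars are the mean ± SD. The groups overlapped in all 8 panels. The 2 squares of Idua stood above its 4 circles, and saline replicate 3 stood above all other arrays of Arsb.

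Heparanase, the endoglycosidase that starts the process, was measured on chromosome 5 by a pair of probes. On its brighter probe Hpse was at -0.29, -0.15 and -0.47 in saline replicates 1 to 3 and at -0.45, -0.39 and -0.20 in rhTM replicates 1 to 3. The groups lay within the same range, with the highest and the lowest array both from saline-treated mice. The difference, rhTM minus saline, was -0.039 (SE 0.14, 95% interval -0.37 to 0.29, n = 3 per group, limma adjusted p = 0.9999), which is a fold of 0.973 with an interval from 0.776 to 1.22. An exact two-sided permutation test gave p = 0.8, where 0.10 is the smallest value that 3 arrays against 3 allow.

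The dimmer Hpse probe ordered the arrays differently. It was at -3.69, -3.73 and -3.72 in saline-treated mice and at -3.80, -4.12 and -3.88 in rhTM-treated mice, well above background on all 6 arrays. All 3 rhTM arrays lay below all 3 saline arrays. The difference was -0.22 (SE 0.14, limma unadjusted p = 0.156, adjusted p = 0.9999 over all probes, exact permutation p = 0.10), and 3.1% of the single probes tested showed the same order. By the authors' table, in which saline replicate 1 and rhTM replicate 2 trade places, the difference of this probe was 0.065 and that of the brighter probe was 0.022.

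**Figure D2:**
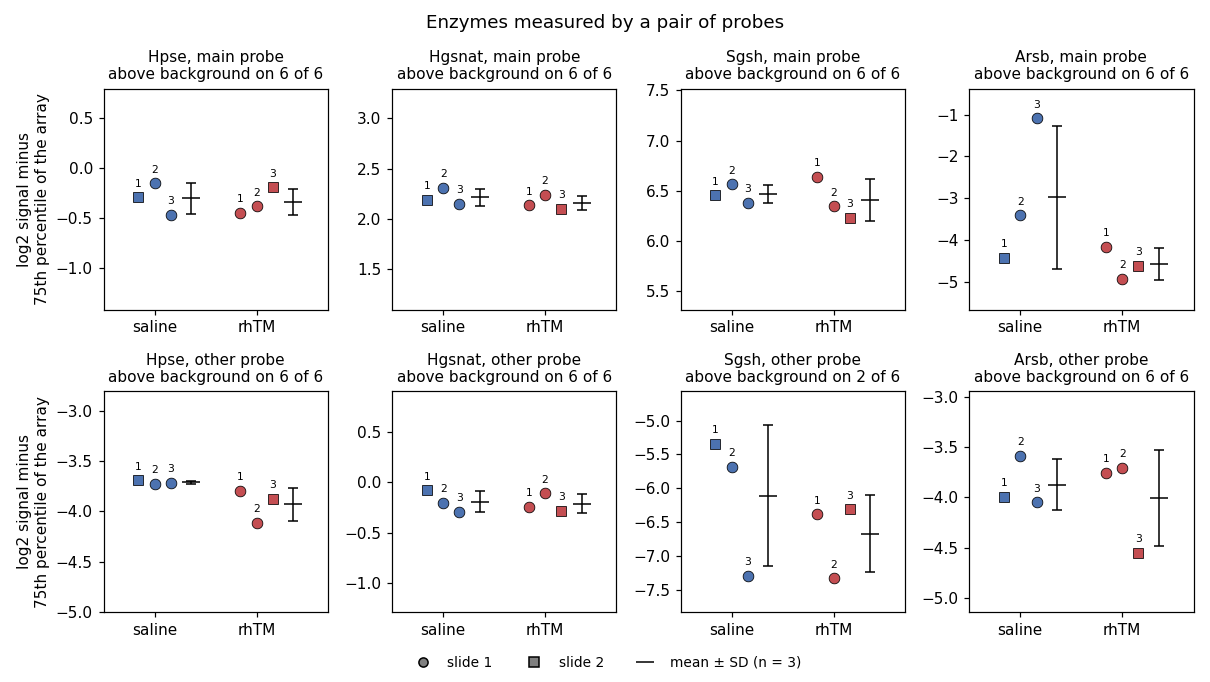
The 4 enzymes measured by a pair of probes, with the main probe, brighter by mean signal, in the upper row and the other probe in the lower row. The y axis is log2 signal minus the 75th percentile of the array, symbols are single arrays (circles slide 1, squares slide 2), and bars are the mean ± SD of 3 mice. Saline replicate 3 was the highest array on the main Arsb probe and the lowest of the saline arrays on the other Arsb probe.

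Iduronate-2-sulfatase acts first on a chain that ends in sulfated iduronate, and it is the enzyme deficient in Hunter syndrome. Its gene lies on chromosome X and had 1 probe. Ids was at 3.57, 3.53 and 3.54 in saline-treated mice and at 3.65, 3.74 and 3.39 in rhTM-treated mice. The saline arrays lay close together inside the wider spread of the rhTM arrays, of which 2 were above and 1 below all saline arrays. The difference was 0.045 (SE 0.13, 95% interval -0.27 to 0.36, fold 1.03, interval 0.830 to 1.28, exact permutation p = 0.7), and by the authors' table it was -0.069.

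α-L-Iduronidase removes the iduronate residue that Ids leaves exposed and is deficient in Hurler syndrome. Idua, also on chromosome 5 and with 1 probe, was at 4.77, 3.83 and 3.85 in saline-treated mice and at 3.82, 3.90 and 4.91 in rhTM-treated mice. In each group 1 array stood about 1 unit above the other two, saline replicate 1 in one and rhTM replicate 3 in the other, and these were the arrays of slide 2. The difference between treatments was 0.062 (SE 0.37, 95% interval -0.83 to 0.95, fold 1.04, interval 0.564 to 1.93, exact permutation p = 0.7), with a within-group SD greater than that of 93.3% of genes.

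With slide and treatment fitted together, Idua was 0.99 higher on slide 2 than on slide 1 (SE 0.10, limma unadjusted p = 0.00011, adjusted p = 0.0171), a fold of 1.98. The range was 4.77 to 4.91 on the 2 arrays of slide 2 and 3.82 to 3.90 on the 4 arrays of slide 1. Idua was the only 1 of the 8 enzymes whose slide difference passed, beside 1.42% of all genes (233 of 16370). Of all genes 1.39% were higher on slide 2 by that test and 0.0367% lower, and 2% differed between slides by at least as much as Idua in either direction. Within slide 1 the rhTM arrays differed from the saline arrays by 0.023, and within slide 2 by 0.14. Left-out arrays altered the call, and without saline replicate 1 or rhTM replicate 3 a single array stands for slide 2 and is assumed to vary like the others. The adjusted p was 0.228 without saline replicate 1, 0.0881 without saline replicate 2, 0.109 without saline replicate 3 and 0.383 without rhTM replicate 3, with differences between 0.93 and 1.05.

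By the authors' table, both high Idua arrays are labelled rhTM and slide 2 holds no saline array, so that the rhTM values were 3.82, 4.77 and 4.91 against 3.90, 3.83 and 3.85 for saline. The difference then became 0.64 (SE 0.28, 95% interval -0.034 to 1.31, limma unadjusted p = 0.0594, adjusted p = 0.368, exact permutation p = 0.4), and with the slide as a term, which leaves rhTM replicate 1 alone to stand against the 3 saline arrays, it was -0.036. The value for Idua thus differed between the 2 deposited assignments. What set the mice or arrays of slide 2 apart was not tested.

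The Idua gene overlaps Slc26a1, a sulfate anion transporter, Dgkq, a diacylglycerol kinase, and the non-coding Gm42151 in the RefSeq annotation, and these neighbours were examined after the Idua values had been seen. Slc26a1 was at -0.52, -2.17 and -1.84 in saline-treated mice and at -2.09, -1.65 and -0.48 in rhTM-treated mice. Its 2 arrays of slide 2 stood above the 4 of slide 1, with a slide difference of 1.44 (limma adjusted p = 0.0280) and a treatment difference of 0.11. As for Idua, the call was lost without saline replicate 1 (adjusted p = 0.345), saline replicate 2 (0.107), saline replicate 3 (0.115) or rhTM replicate 3 (0.402). The 2 probes of Dgkq differed between slides in opposite directions. On the brighter one the slide difference was -0.33 (limma adjusted p = 0.234), and on the other it was 0.17, with both arrays of slide 2 above the 4 of slide 1, while no probe was named for Gm42151. Probe sequences were not used here, so where the Idua and Slc26a1 probes lie relative to each other is not stated.

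**Figure D3:**
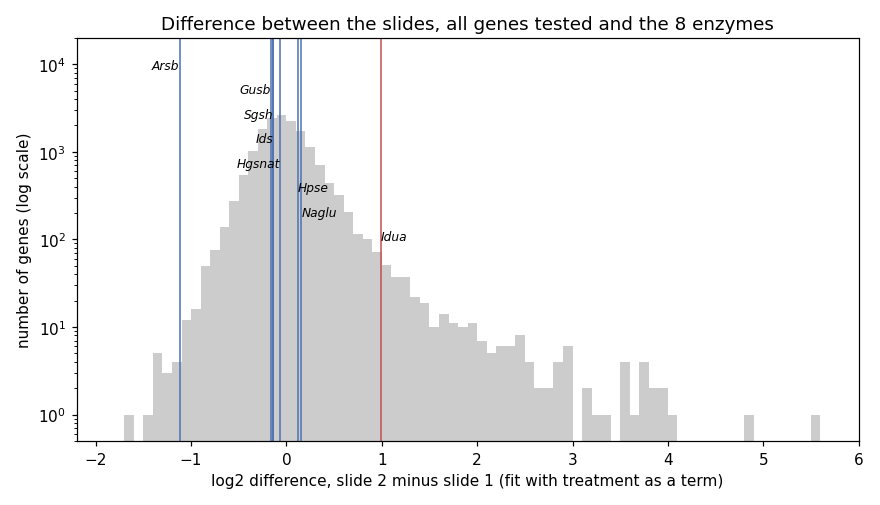
Distribution over 16370 genes of the log2 difference between slide 2 and slide 1, fitted with treatment as a term (x axis), as the number of genes per 0.1 unit (y axis, log scale), with a line for each of the 8 enzymes. The red line is Idua, at 0.99 the only enzyme that passed the adjusted threshold. Arsb lay at -1.12 and did not pass, and the distribution reached further on the side of genes higher on slide 2.

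N-Sulfoglucosamine sulfohydrolase removes the sulfate from N-sulfated glucosamine and is deficient in Sanfilippo syndrome type A. Sgsh, on chromosome 11, was bright and not saturated on any array, at 6.45, 6.56 and 6.38 in saline-treated mice and at 6.64, 6.35 and 6.23 in rhTM-treated mice. The highest and the lowest array were both from the rhTM group, so that it spanned the saline group. The difference was -0.061 (SE 0.14, 95% interval -0.40 to 0.28, fold 0.959, interval 0.755 to 1.22, exact permutation p = 0.7), and by the authors' table it was 0.012. A second Sgsh probe was well above background on 2 saline arrays and 0 rhTM arrays and did not enter the limma fit (exact permutation p = 0.4). The Sgsh gene overlaps Slc26a11 and Card14 in the annotation.

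The acetyltransferase Hgsnat, a membrane protein of the lysosome, acetylates the glucosamine that Sgsh has freed of its sulfate, which makes it a substrate for Naglu. On the brighter of its 2 probes Hgsnat, on chromosome 8, was at 2.19, 2.31 and 2.15 in saline-treated mice and at 2.13, 2.23 and 2.10 in rhTM-treated mice. The arrays of both groups overlapped and varied little, with a within-group SD at percentile 5.33 of all genes. The difference was -0.058 (SE 0.11, 95% interval -0.33 to 0.21, fold 0.961, interval 0.796 to 1.16, exact permutation p = 0.4), and by the authors' table it was -0.090. The other probe gave a difference of -0.020, from -0.080, -0.21 and -0.29 in saline and -0.24, -0.11 and -0.28 in rhTM, again with overlap. Hgsnat was the enzyme with the narrowest interval of the 8.

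N-Acetyl-α-glucosaminidase then removes the acetylated residue. Naglu, on chromosome 11 with 1 probe, was at 3.43, 3.47 and 3.20 in saline-treated mice and at 2.97, 3.26 and 3.33 in rhTM-treated mice. Both of the highest arrays were from saline-treated mice and the lowest was rhTM replicate 1, with overlap between them. The difference was -0.18 (SE 0.15, 95% interval -0.53 to 0.17, fold 0.882, interval 0.691 to 1.13, limma unadjusted p = 0.265, exact permutation p = 0.3), and by the authors' table it was -0.065.

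β-Glucuronidase removes glucuronate from heparan, dermatan and chondroitin sulfate fragments and is deficient in Sly syndrome. Gusb, on chromosome 5 with 1 probe, was at 2.29, 2.78 and 2.61 in saline-treated mice and at 2.26, 2.55 and 2.49 in rhTM-treated mice. Saline replicates 2 and 3 were above all rhTM arrays, and saline replicate 1 was among the lowest, next to rhTM replicate 1. The difference was -0.13 (SE 0.17, 95% interval -0.52 to 0.27, fold 0.916, interval 0.695 to 1.21, exact permutation p = 0.4).

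Read by the authors' table, Gusb was the only enzyme of the 8 whose groups separated, because the low array of saline replicate 1 is placed in the rhTM group. Values were then 2.55, 2.78 and 2.61 for saline and 2.26, 2.29 and 2.49 for rhTM. The difference was -0.30 (SE 0.12, 95% interval -0.58 to -0.026, limma unadjusted p = 0.0364, adjusted p = 0.340, exact permutation p = 0.10), and 12% of genes had all rhTM arrays below all saline arrays in that table. Gusb was also the 1 of 8 at an unadjusted p under 0.05, beside 14% of genes. Without both exchanged arrays the difference was -0.32, and within slide 1 of the scanner output it was -0.29, whereas the single pair of arrays on slide 2 differed by 0.20.

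Arylsulfatase B, which removes the 4-sulfate from N-acetylgalactosamine of dermatan and chondroitin sulfate and is deficient in Maroteaux-Lamy syndrome, had the widest spread within groups of the 8. On the main Arsb probe, on chromosome 13, saline-treated mice were at -4.43, -3.42 and -1.09 and rhTM-treated mice at -4.17, -4.94 and -4.62. A single array, saline replicate 3, stood more than 2 units above every other, and saline replicate 1 lay within the rhTM group. The difference was -1.60 (SE 0.79, 95% interval -3.47 to 0.27, limma unadjusted p = 0.0831, adjusted p = 0.9999, exact permutation p = 0.2), a fold of 0.330 with an interval from 0.0902 to 1.21. Its size exceeded that of 99.96% of genes, and its within-group SD of 1.24 exceeded that of 99.4%.

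The value rested on that array and on that probe. It was the main Arsb probe by mean signal over the arrays (97.0 against 51.4 for the other probe). That ranking came from saline replicate 3, which was at -1.09 on the main probe and at -4.05 on the other. Saline replicate 1 and every rhTM array were lower on the main probe than on the other, so the same array weighed on the choice of probe and on the difference. Without saline replicate 3 the Arsb difference was -0.65, with normexp background correction it was -0.83, and by the authors' table it was -1.26. The other Arsb probe was at -3.99, -3.58 and -4.05 in saline-treated mice and at -3.76, -3.71 and -4.55 in rhTM-treated mice. On this probe saline replicate 3 was the lowest saline array and the groups overlapped, with a difference of -0.13 (exact permutation p = 0.8), which was -0.32 by the table. Both probes were well above background on all 6 arrays, and why saline replicate 3 was high on one and not on the other was not tested.

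**Figure D4:**
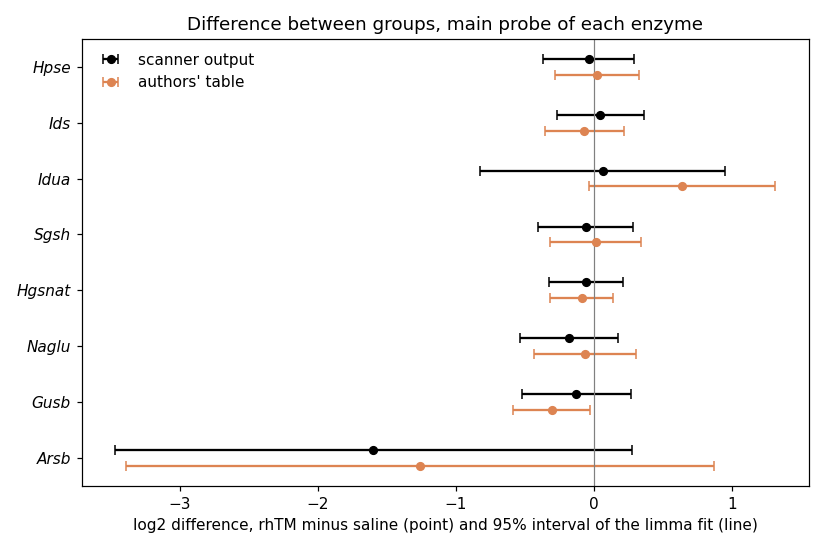
Difference of each enzyme's main probe between rhTM-treated and saline-treated mice on the log2 scale (x axis), as the limma estimate (point) with its 95% interval (line), from the scanner output (black) and from the authors' table with 2 exchanged arrays (orange). The scanner intervals of all 8 enzymes include 0. The table interval of Gusb, -0.58 to -0.026, does not, and Idua moves from 0.062 to 0.64.

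Grouped by function, the 3 sulfatases Ids, Sgsh and Arsb differed by 0.045, -0.061 and -1.60, and the 3 exoglycosidases Idua, Naglu and Gusb by 0.062, -0.18 and -0.13. Heparanase, the only endoglycosidase, and the acetyltransferase Hgsnat differed by -0.039 and -0.058. Across the 6 arrays the enzymes did not move as a block. The highest Pearson correlation among their pairs was 0.80, between Hpse and Naglu, followed by 0.61 between Gusb and Hgsnat, and the lowest was -0.60, between Ids and Idua. These are descriptions over 6 arrays that share slides and scaling. The genes whose level followed Hpse most closely were Myoz1 (r = 0.98), Slc27a4 (r = 0.97) and Plxnb2 (r = 0.97), with 75 of the 16370 genes above 0.9. Those most like Arsb were Entpd6 (r = 0.98), Opn3 (r = 0.96) and Gmpr (r = 0.96), with 40 of the 16370 above 0.9. On the main Arsb probe saline replicate 3, at -1.09, stood apart from the other arrays, which lay between -4.94 and -3.42. How many genes would pass 0.9 by chance over 6 arrays was not tested.

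Other enzymes of glycosaminoglycan degradation were described for comparison. Of 14 genes on the list 11 were tested, of which 3 were higher and 8 lower with rhTM and 0 passed, with a median difference of -0.090. The rhTM arrays lay below all saline arrays in 2 of the 11, beside 2.57% of genes, and these were Galns (-0.24), which acts on keratan and chondroitin sulfate, and the lysosomal hyaluronidase Hyal1 (-0.71). Hyal1 was at -0.96, -1.45 and -1.41 in saline-treated mice and at -2.99, -1.46 and -1.50 in rhTM-treated mice, so that rhTM replicate 1 alone stood far below the rest. By the authors' table Galns differed by -0.20 and Hyal1 by -0.37, and the groups of both overlapped. Cemip, a hyaluronan-degrading protein, had the opposite sign (0.96), with rhTM replicate 1 at -1.03 and the other arrays between -4.83 and -3.68, and it was 1.47 by the table. Hexa, a subunit of β-hexosaminidase, differed by -0.29, and Arsg, a sulfatase of heparan sulfate, by 0.21, with -0.30 and 0.15 by the table. Hpse2, the heparanase homologue without enzymatic activity, and the sperm hyaluronidase Spam1 did not reach the background criterion, and Tmem2 is not named on the array.

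In the table these 11 divided into 5 with a higher and 6 with a lower mean, with 2 at an unadjusted p under 0.05, beside 14% of all genes, Hyal2 (-0.24) and Arsk (-0.29), and 0 after adjustment. In both, all rhTM arrays lay below all saline arrays by the table, beside 12% of genes, whereas the groups overlapped in the scanner output. The sulfatase-activating gene Sumf1 differed by 0.010 and its paralogue Sumf2 by -0.043 in the scanner output, and by -0.046 and 0.032 in the table. Of 7 genes for mannose 6-phosphate sorting and lysosomal targeting 5 were higher and 2 lower, with a median of 0.030, whereas in the table, 2 were higher and 5 lower, with a median of -0.039. Gnptab, the phosphotransferase that starts the tag, differed by 0.18 in the scanner output and by -0.039 in the table. Nagpa, the enzyme that uncovers it, was at 0.72, 1.03 and 0.90 in saline-treated mice and at 0.78, -0.016 and 0.60 in rhTM-treated mice, a difference of -0.43 (limma unadjusted p = 0.098) with overlap of the groups, and by the table it was 0.064.

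Of 31 other lysosomal proteins, 12 were higher and 19 lower, with a median of -0.032, a range from -0.32 to 0.19 and 0 passing. The smallest p of the list was that of Gm2a, the activator of ganglioside hydrolysis, which differed by -0.27 (limma unadjusted p = 0.0752). The acid phosphatase Acp2 followed, at -0.32 (limma unadjusted p = 0.0967). By the table the median was -0.12, with 6 of 31 at an unadjusted p under 0.05, beside 14% of all genes. Of 12 genes of lysosomal regulation and the proton pump, 3 were higher and 9 lower with a median of -0.064, which was -0.19 by the table, and 0 passed in either. All rhTM arrays lay below all saline arrays by the table in 5 of these 12 genes and in 8 of the 31 other lysosomal proteins, beside 12% of genes, and by the scanner output in 1 of 12 and 2 of 31, beside 2.57%. Another 5 of the 31 had all rhTM arrays above all saline arrays by the table, beside 1580 of 16320 genes. By the scanner output it was 1 of the 31, beside 483 of 16370 genes.

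**Figure D5:**
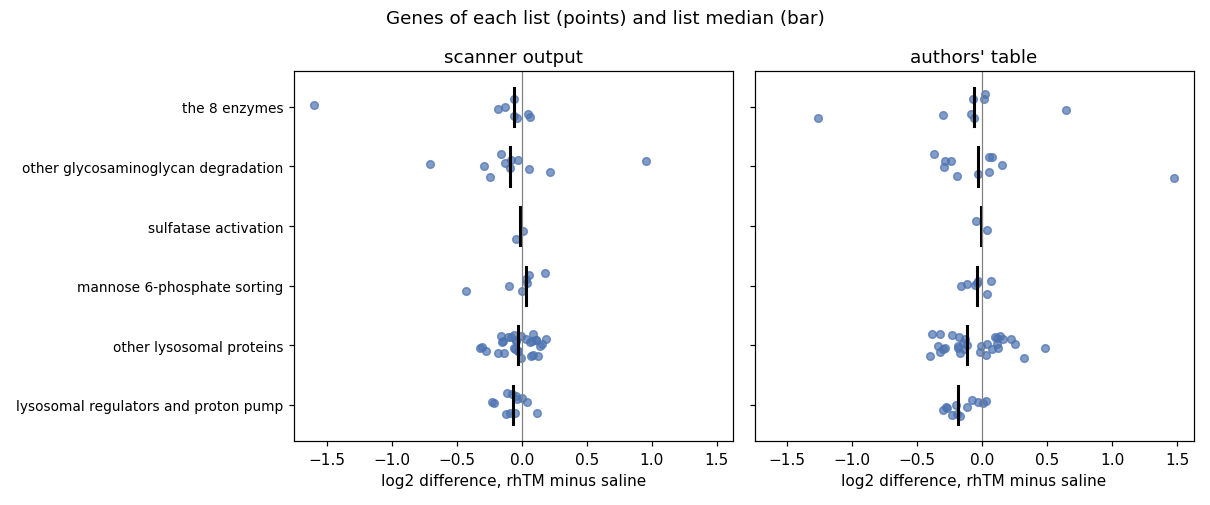
Log2 difference between rhTM-treated and saline-treated mice (x axis) for each tested gene of the 8 enzymes and of 5 related lists (rows, points), with the median as a bar, from the scanner output (left) and the authors' table (right). Vertical scatter within a row has no meaning. List medians lay between -0.090 and 0.030 in the scanner output and down to -0.19 in the table.

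Of the cell type lists, those of macrophages, neutrophils and endothelium are described here, as mean log2 level over the markers of the list. All 10 macrophage markers were tested, with 3 higher and 7 lower, and their mean was between 2.78 and 2.89 on saline arrays and between 2.62 and 2.87 on rhTM arrays. Their median difference was -0.17, and -0.22 by the table. In 2 of the 10, the complement genes C1qa and C1qb, all rhTM arrays lay below all saline arrays in the scanner output, beside 2.57% of genes. By the authors' table the groups of both overlapped. C1qb differed by -0.38 (limma unadjusted p = 0.0398), and by -0.29 in the table, and 0 passed adjustment. Of 10 neutrophil markers 9 were tested, with 7 higher and 2 lower, and the mean lay between 5.20 and 5.31 in saline-treated and between 5.18 and 5.68 in rhTM-treated mice, with rhTM replicate 1 the highest array. The 7 endothelial markers, 4 higher and 3 lower with a median difference of 0.058, had means of 2.92 to 3.19 in saline-treated and 2.92 to 3.15 in rhTM-treated mice. In the other reading, by the table, 2 of the 7 were higher and 5 lower, with a median of -0.32, and 3 of 7 (Pecam1, Tek and Emcn) had all rhTM arrays below all saline arrays, beside 12% of genes, and a limma unadjusted p under 0.05, beside 14% of genes in that table. The table gave 3 higher and 7 lower macrophage markers, with 0 at that level, and 6 higher and 3 lower neutrophil markers, with 2 at that level, and 0 markers of these lists passed adjustment. The part of cell composition in the levels of the 8 enzymes was not tested.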

How the data were processed

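RNA from the lungs of 3 mice given saline and 3 given rhTM was hybridised to Agilent SurePrint G3 Mouse arrays, with groups taken from the sample labels. The scanner output deposited by the authors holds the processed signal, an intensity on a linear scale that Feature Extraction 10.7.3.1 corrected for background. The table of intensity values deposited by the authors matched the scanner values within 0.1% at 99.9% of probes or more for 4 columns and, after exchange, for the other 2. By the labels each array is 1 mouse, so p-values measure the spread between these mice together with any difference between arrays and slides. RNA extraction is given as different kits in the labels and in the methods, and the control as saline or PBS.

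Control spots and outlier-flagged spots were left out (398 of 56605 probes dropped), spots of a probe were averaged, and the 75th percentile was subtracted from the log2 signal of each array. Accessions of 32994 probes matched 22911 genes of RefSeq (GRCm38.p6), 22815 of them without the dropped probes. A probe was kept if all 3 arrays of either group had it well above background (36061 probes), and each gene was read from its brightest probe by mean signal. Groups were compared with limma 3.58.1 in R 4.3.3, without covariates, with Benjamini-Hochberg adjustment over 16370 genes and a threshold of 0.05, and by exact two-sided permutation (scipy 1.17.1). The fit was tested on simulated data. Fold limits of the methods were 2 and 0.5 at 0.01. Members, lists and alternatives were chosen with earlier results of these data known. Named genes were all members with every probe, genes of the degradation, activation and sorting lists, at most 3 genes per other list by smallest p, and the 3 genes most like Hpse or Arsb. Genes overlapping Idua, and the alternatives for the slide difference, were added after seeing the data.

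Alternatives were normexp with an offset of 50 (on median spot signals, in place of mean signals), quantile normalization, another percentile set, the authors' table, other filters, a block for the slide or for the replicate number, averaging all probes of a gene, the methods' t-test and each array left out.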

Additional observations from a re-analysis of the deposited data

How the results depend on the processing

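No enzyme passed an adjusted 0.05 in any alternative, and the lowest adjusted p was 0.159, for Gusb in the table when a slide term was added, a fit in which slide 2 holds rhTM arrays only, so that rhTM replicate 1 alone is set against the 3 saline arrays and is assumed to vary like the others. Arsb, Gusb, Hgsnat and Naglu kept a negative difference in every alternative and with each array left out. In the scanner output the other filters, the slide or replicate block and the methods' t-test left the estimates of all 8 enzymes unchanged. Those settings therefore could not test the sign. The small differences of Hpse, Ids, Idua and Sgsh changed sign. Hpse was 0.023 with normexp and 0.022 by the authors' table, Ids was -0.011 with normexp, -0.069 by the table and -0.018 without both exchanged arrays, and Sgsh was 0.012 by the table. In that fit with 1 array in the rhTM arm, Sgsh was 0.21 and Idua -0.036, and 432 genes were called, none of them a member. The cause was not tested. With each array left out in turn, the range was -0.12 to 0.036 for Hpse, -0.030 to 0.15 for Ids, -0.29 to 0.37 for Idua, -0.18 to 0.026 for Sgsh, -0.097 to -0.012 for Hgsnat, -0.27 to -0.073 for Naglu, -0.26 to -0.017 for Gusb and -2.32 to -0.65 for Arsb, and 0 genes were called each time, with 207 to 1379 at an unadjusted p under 0.05 (the highest without rhTM replicate 2). Idua was -0.097 without saline replicate 2, -0.088 without saline replicate 3 and -0.29 without rhTM replicate 3. Hpse was 0.036 without saline replicate 2 and 0.014 without rhTM replicate 1, Ids -0.030 without rhTM replicate 2, and Sgsh 0.026 without rhTM replicate 3. Without both exchanged arrays Idua was 0.53 and Arsb -2.14. The median of the 8 enzymes ran from -0.015 without saline replicate 2 to -0.13 without rhTM replicate 3, that of the regulators and proton pump from -0.13 to -0.0012 and that of other lysosomal proteins from -0.040 to 0.0066.

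The deviations of same-numbered arrays from their group means correlated at -0.30, 0.44 and -0.45 for replicate numbers 1 to 3. Only the arrays numbered 2 lay on the same slide, so these values cannot show whether replicate numbers paired the mice. With the replicate number as a block, 0 genes were called (377 at an unadjusted p under 0.05) and the differences were those of the fit without it, for example -0.039 for Hpse and -1.60 for Arsb. The slide difference of Idua was 0.96 to 0.99 under normexp, quantile normalization and the other percentile set, and that of Slc26a1 1.20 to 1.44, each past the threshold. With an array left out, Slc26a1 was between 1.35 and 1.54, and both genes lost the call in 4 of the 6 cases, with adjusted p up to 0.383 for Idua and 0.402 for Slc26a1.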
